A study of Zea mays with 24 samples.

Results

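The protein-coding part of the maize mitochondrial genome is described here as it was counted in endosperm, the nutritive tissue of the kernel. Its members were chosen by identifier: every feature whose identifier begins with the prefix ZeamMp, which made 175 of the 46430 features counted. All 175 were matched by identifier to names in the RefSeq annotation for Zm-B73-REFERENCE-NAM-5.0, which lists 157 of them as protein coding and 18 as pseudogenes. By name, 6 members belong to complex I (nad), 1 to complex III (cob), 3 to complex IV (cox), 6 to ATP synthase (atp), 4 to cytochrome c maturation (ccm) and 9 to the mitochondrial ribosome (rps, rpl). A further member is the maturase mat-r, and 17 have names ending in -ct and are classed here as plastid-derived. The remaining 128 are open reading frames (orf) with no function in their name. The genes nad1, nad2 and nad5, which stand under 6 further identifiers in RefSeq, are not analysed here.

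Endosperms of 15 days after pollination were pooled, 5 to 10 to a library, giving 24 libraries of MP3RNA-seq, which counts transcripts from their 3′ ends. They form 8 groups of 3 in 3 experiments. The first set a mutant of ZmICE1a, a transcription factor gene, against wild type, with no hormone. The second used wild type with and without IAA, an auxin, and the third crossed genotype with JA, jasmonic acid. Neither the allele of the mutant nor the hormone doses and treatment times are stated in the labels. Whether replicates came from separate plants is not said either, so p-values measure only how these libraries vary, and that variation may be technical. No nuclear gene model could be matched to a symbol, so neither the level of ZmICE1a nor any endosperm marker was examined, and the labelled genotype and tissue are taken from the labels.

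The labels of the JA experiment conflict for 6 of its 12 libraries. The groups are named here as the count tables name them: wt_0, mu_0, wt_100 and mu_100, with 0 and 100 of a unit that is not given. The labels call wt_0 wild type without JA and mu_100 mutant with JA in every field. The mu_0 libraries carry a mutant genotype field, but their titles say wild type and their titles and treatment field say JA. The wt_100 libraries carry a wild type genotype field, but their titles say mutant and their titles and treatment field say no JA. The same 12 libraries fall into the same 4 sets of 3 under either reading. The difference of mu_0 from wt_0 is therefore a genotype difference by table name and a JA difference by title, and that of wt_100 from wt_0 is the reverse.

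Plant mitochondria keep a genome of their own that encodes a small part of the respiratory chain, ATP synthase, the cytochrome c maturation machinery and the mitochondrial ribosome. Complex I takes electrons from NADH, complex III passes them to cytochrome c, complex IV hands them to oxygen, and ATP synthase uses the proton gradient that results. The nucleus encodes the remaining subunits, so each complex is built from the products of both genomes. Stable poly(A) tails are not typical of plant mitochondrial messengers, in which added tails are known to mark RNA for decay. A count is therefore a count of 3′-end tags and says nothing of protein or of respiration. In pooled tissue, fewer cells of a type, fewer mitochondria per cell and less RNA per mitochondrion cannot be told apart.

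The members were a small and shallow part of each library. They held 38907 counts over all 24 libraries, between 369 and 2632 in a library. Total counts per library were 3109928 to 4875478 in the genotype experiment, 432016 to 959735 in the IAA experiment and 839322 to 1917363 in the JA experiment. In the JA experiment the wt_0 libraries were the deepest, with at least 1660718 counts against at most 1353622 in the other 9. The median member had 48 counts over all 24 libraries, 16 members had at least 240, 20 had a count in every library and 8 had fewer than 24 in all.

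A few members made up most of the signal. The open reading frame orf111-b held 6233 counts, rps1 4752 and orf99-d 4402. They were followed by nad4 with 1713, atp4 with 1533, orf101-a with 1521, orf140-a with 1508, ccmFN with 1504 and cox3 with 1375. By role, open reading frames held 58.4% of the members' counts and ribosomal protein genes 17.7%. Complex I and complex IV held 5.77% each, ATP synthase 4.86%, cytochrome c maturation 4.73%, the -ct members 2.05%, the maturase 0.568% and complex III 0.144%. Counts are not per unit of length, so these shares describe where the tags fell and do not rank the genes by transcript number.

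Many genes of known function were too low to test. Cob, the mitochondrial subunit of complex III, had 56 counts over all 24 libraries and at most 5 in any of them. Of complex I, nad7 had 72 counts, nad9 41, nad4L 28 and nad6 7. Of ATP synthase, atp9, the gene of the membrane ring subunit, had 43 counts, atp8 43, atp6 42 and the copy atp1-a2 26. CcmC with 110 counts, ccmB with 62, rps2B with 135, rps13 with 49 and rps4 with 34 fell below the filter too. These 14 genes entered no comparison of the main fits, which used the filter and all libraries and features. A difference in them was not detectable at this depth.

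Low members were not independent of their neighbours. For each pair next to each other in the RefSeq gene order, the share of counts in common was taken as the sum over libraries of the smaller count divided by the sum of the larger. This share was at least 0.8 for 85 of 174 neighbouring pairs (48.9%) and for 269 of the 15051 other pairs (1.79%), with a median of 0.784 among neighbours. The value of 0.8 was chosen after the data had been seen. Of the 85 pairs, 74 have listed spans that do not overlap each other. Chains of such pairs formed 27 runs that held 112 of the 175 members.

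The longest run held 12 members and included atp8, and a run of 11 included atp9. Another run of 11 extended from orf140-c through atp1-a1, the alpha subunit of ATP synthase, and rps2A to orf105-e. In that run every member had 14 to 17 counts in wt_0 replicate 1, 16 to 19 in mu_0 replicate 2 and 0 to 1 in mu_0 replicate 3. The members were less alike in wild type replicate 2 of the genotype experiment, with 7 to 15 counts. Orf140-a and orf101-a, whose spans overlap, had a share of 0.981 and are treated below as 1 signal. What makes neighbours share counts was not tested, and a value of atp1-a1 or rps2A cannot be read as that of its own transcript.

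**Figure D1:**
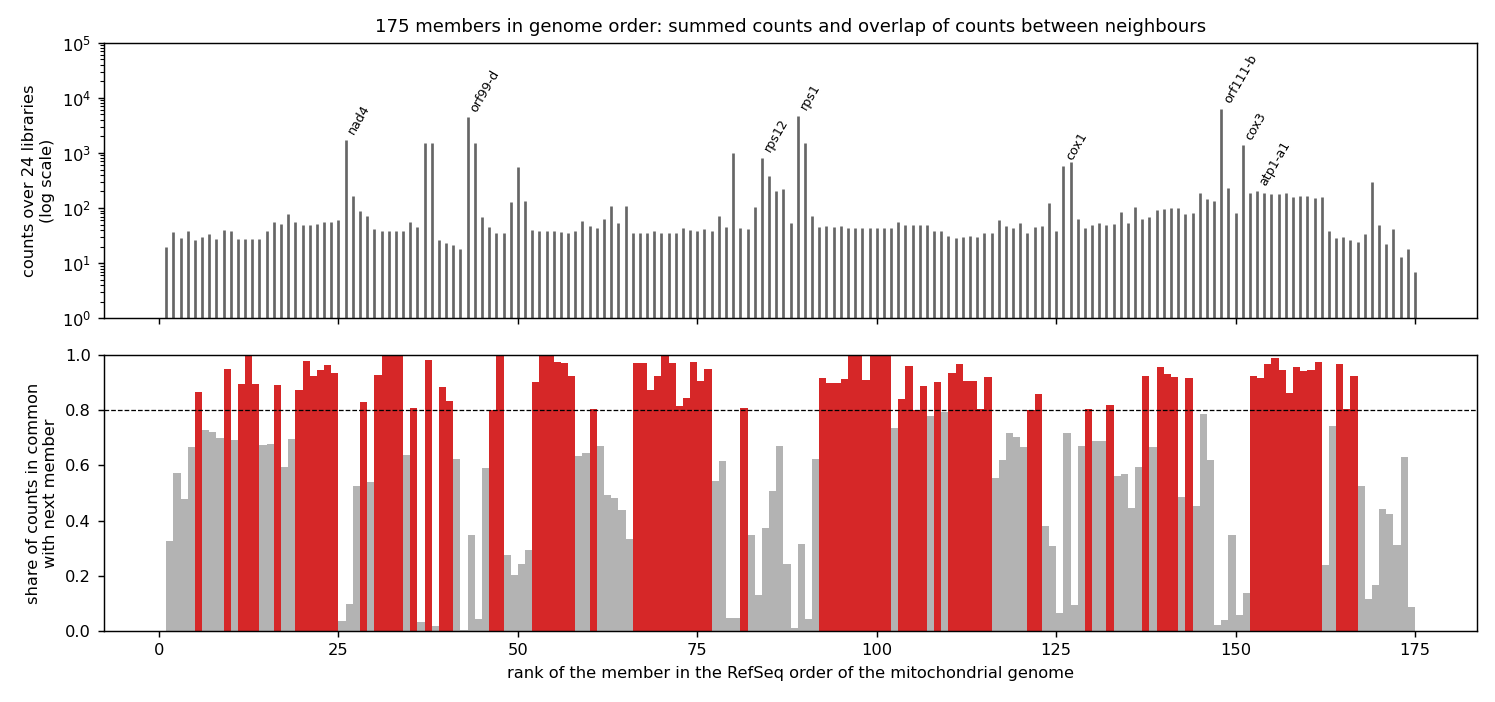
Members in the RefSeq order of the mitochondrial genome (x axis, rank), with counts summed over 24 libraries on a log axis (top) and the share of counts in common with the next member (bottom; red, at least 0.8; dashed line, 0.8). High members such as nad4, orf99-d, rps1, orf111-b and cox3 have low shares, which follow from their unequal counts alone. Long stretches of low members carry nearly the same counts, and 85 of 174 pairs are red.

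Apart from orf140-a and orf101-a, the most abundant members had lower shares in common with their neighbours. The share cannot exceed the smaller summed count divided by the larger, so it is low by construction where neighbours differ in abundance. Low values therefore cannot show whether such neighbours are independent. Rps1 and ccmFN lie next to each other and had a share in common of 0.316. Orf99-d and atp4 had 0.348, rps12 and nad3 0.373 and nad4 and ccmFC 0.0957. Cox1 and the open reading frame orf147-b beside it had 0.716 and held 576 and 673 counts. The results below rest mainly on these members.

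The composition of the members' counts differed between the experiments. Orf111-b, rps1 and orf99-d together made up 48.4% to 53.7% of the members' counts in the 6 genotype libraries. In the 6 IAA libraries they made up 20.1% to 28.4%, and in the 12 JA libraries 30.3% to 39.6%. The ranges do not overlap. Complex IV made up 1.23% to 2.13%, 3.88% to 11.7% and 5.27% to 12.2% in the same order. The plastid-derived -ct members made up 0.516% to 1.56%, 3.79% to 8.54% and 0.452% to 3.48%. Whether reads from the plastid were counted in them was not tested.

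Some ratios within a library, which do not depend on scaling, differed between experiments too. Cox3 had 0.13 to 0.26 counts for each count of nad4 in the genotype libraries, 0.375 to 1.16 in the IAA libraries and 0.774 to 1.98 in the JA libraries. Rps12 had 2.8 to 9.5 counts for each of its neighbour nad3 in the genotype libraries, 0.235 to 0.75 in the IAA libraries and 1.89 to 3.71 in the JA libraries. The genotype libraries stood apart from the others in the first ratio and the IAA libraries in the second, while the remaining ranges overlapped. Other pairs went both ways. Orf111-b to rps1 ran from 0.954 to 1.7, 0.655 to 1.35 and 0.888 to 2.1 in the same order, with overlap throughout. Atp4 to nad4 ran from 0.564 to 0.8, 0.0769 to 0.458 and 0.905 to 1.86, with none. Untreated wild type stands in each experiment, so these ranges include libraries of like labels. The experiments differ in depth and were deposited as separate sets, which cannot be told apart from any difference in the plants, and levels are therefore compared within an experiment from here on.

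Before the comparisons, the members' share of all counts shows how even the groups were. In the genotype experiment it was 0.0552%, 0.054% and 0.0467% in the wild type libraries and 0.042%, 0.0738% and 0.0625% in the mutant libraries. In the IAA experiment it was 0.116%, 0.0872% and 0.106% without IAA and 0.0991%, 0.0655% and 0.072% with it. Both pairs of groups overlap. In the JA experiment it was 0.0912%, 0.122% and 0.116% in wt_0, 0.171%, 0.22% and 0.109% in mu_0, 0.153%, 0.146% and 0.152% in wt_100 and 0.213%, 0.131% and 0.224% in mu_100. All wt_100 and mu_100 libraries lay above all wt_0 libraries, while mu_0 replicate 3 lay within the range of wt_0.

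Other RNA classes moved in the JA libraries as well. Mitochondrial ribosomal RNA made up 0.162% to 0.204% of counts in wt_0, 0.235% to 0.367% in mu_0, 0.223% to 0.242% in wt_100 and 0.231% to 0.348% in mu_100. Plastid protein features, markers of the other organelle, made up 0.00672% to 0.016%, 0.0209% to 0.0405%, 0.0126% to 0.0149% and 0.0302% to 0.0375% in the same order. The class of ENSRNA features, annotated non-coding RNAs, made up 1.13% to 3.61%, 3.33% to 10.7%, 2.19% to 2.77% and 2.02% to 3.44%. Of 4 leaf plastid genes (rbcL, psbA, psaA and psaB), all were at 0 in 11 of the 12 JA libraries and 1 count was found in the other. The part of these classes in the results below was not tested beyond a fit without the ENSRNA features, which is given beside each count that it moves by more than 1.5 times.

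Some libraries stood apart in the members that were too low to test in the main fits. Of 144 such members, 139 and 140 had a count in mu_0 replicates 1 and 2, and 76 in replicate 3. In mu_100 it was 141 in replicate 1, 76 in replicate 2 and 134 in replicate 3. In the genotype experiment mutant replicate 1 had 49, against 137 and 128 in the other mutant libraries and 90 to 121 in wild type. These libraries are left out in turn below. The members that were tested made up 0.0732% to 0.0953% of counts in wt_0, 0.0921% to 0.151% in mu_0, 0.124% to 0.125% in wt_100 and 0.117% to 0.166% in mu_100.

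**Figure D2:**
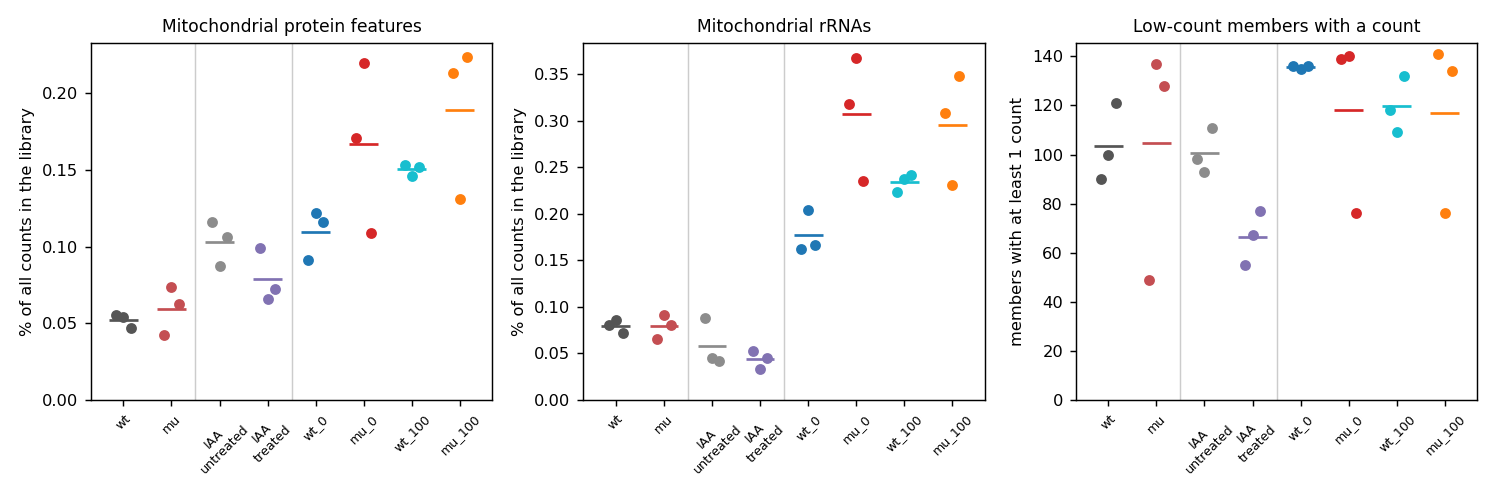
Share of all counts in mitochondrial protein features (left, %) and mitochondrial ribosomal RNAs (middle, %), and number of the 144 low-count members with at least 1 count (right), for 24 libraries in 8 groups (points, libraries; bars, group means; grey lines separate the experiments). The wt_0 libraries sit at 0.0912% to 0.122% in the left panel, below all wt_100 and mu_100 libraries, and mutant replicate 1 of the genotype experiment, mu_0 replicate 3 and mu_100 replicate 2 hold few low-count members.

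The levels that follow are CPM, counts scaled to the size of the library after TMM normalization, and each test is edgeR's quasi-likelihood test over all features of an experiment with Benjamini-Hochberg adjustment. A member is said to have risen or fallen where its adjusted p was under 0.05. After a filter on low counts, 23 members were tested in the genotype experiment, 10 in the IAA experiment and 26 in the JA experiment. That made 31 in any experiment and 9 in all 3, so statements on members tested are not statements on all 175.

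In the mutant without hormone, no mitochondrial member passed the test. Of 23 members tested, 0 were called by edgeR and 0 by DESeq2, while 5 reached an unadjusted p under 0.05 in edgeR. Over all 17841 features tested, 3.23% were called higher and 2.96% lower. The members' median log2 fold change was 0.26, with 18 of 23 positive, against a median of 0.00 over all features. Without mutant replicate 2 the median was -0.04 and 10 of 23 were positive. Without mutant replicate 1 it was 0.38 with 28 of 30 positive, and without mutant replicate 3 it was 0.31 with 25 of 30. Without 1 wild type library it ran from 0.14 to 0.31. The lean of the list thus depended on single libraries, and the filter was applied anew in each of these fits.

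By role, the genotype libraries gave small differences. Nad4 of complex I, which belongs to the proton-pumping arm, was at 30.7, 30 and 19.7 CPM in wild type and 16.2, 37.5 and 32.6 CPM in the mutant. Cox3, a subunit of the core of cytochrome c oxidase, was at 4.01, 5.14 and 4.21 CPM in wild type and 4.2, 9.02 and 6.12 CPM in the mutant. Both overlap between genotypes, with log2 fold changes of 0.11 ± 0.21 (SE) and 0.54 ± 0.28. Atp4, which codes for a subunit of the stalk of ATP synthase, was at 23.2, 21.6 and 13.3 CPM in wild type and 12.9, 21.1 and 22.2 CPM in the mutant, and it overlapped too, with a log2 fold change of -0.04 ± 0.20.

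CcmFN, which takes part in the attachment of haem to cytochrome c, was at 13.8, 14.6 and 12.9 CPM in wild type and 15.8, 19.5 and 20.4 CPM in the mutant. The genotypes did not overlap for this gene, but it missed the threshold, with a log2 fold change of 0.44 ± 0.15 and an edgeR adjusted p of 0.106. Rps1, a protein of the small mitochondrial ribosomal subunit, was at 78.9, 84.9 and 68.3 CPM in wild type and 76.9, 101 and 97.9 CPM in the mutant (log2 fold change 0.25 ± 0.09, edgeR adjusted p = 0.109). Mat-r, the maturase that serves intron splicing, was at 2.53 ± 0.834 CPM (SD, n = 3) in wild type and 1.94 ± 0.929 CPM in the mutant. Orf111-b, the most abundant member, was at 115, 132 and 116 CPM in wild type and 73.4, 145 and 107 CPM in the mutant.

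Leaving out single libraries gave calls in the genotype comparison. Without mutant replicate 1, the library with few low-count members, orf99-d (log2 fold change 0.47, edgeR adjusted p = 0.00952) and rps1 (0.36, edgeR adjusted p = 0.0145) were called higher. Without wild type replicate 1, orf140-a and orf101-a, which are 1 signal, were called higher at 0.51 each, with edgeR adjusted p of 0.0357 and 0.0392. Without the ENSRNA features 1 member of 23, rps1, was called higher (edgeR adjusted p = 0.0388), as were 688 of all 17619 features. Mitochondrial ribosomal RNAs did not pass the test, with log2 fold changes of 0.06 ± 0.06 for rrn26 and -0.18 ± 0.13 for rrn18.

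After IAA, 1 of the 10 members tested fell, the ribosomal protein gene rps1, and none rose. Over all 7687 features, 1.17% were called lower and 1.25% higher. DESeq2 also called 1 lower and 0 higher, and 2 members had an unadjusted p under 0.05 in edgeR, rps1 and orf111-b, both lower. The members' median log2 fold change was 0.06 with 5 of 10 positive, against 0.00 over all features. Rps1 was at 109, 99.4 and 103 CPM without IAA and at 56.7, 55.7 and 39.2 CPM with it. Each treated library lay below each untreated library (log2 fold change -1.05 ± 0.23, edgeR adjusted p = 0.0288). The call was lost in each of the 6 fits without 1 library, with edgeR adjusted p from 0.0545 to 0.125 and log2 fold changes from -1.14 to -0.89.

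The other members tested after IAA did not pass. Orf111-b was at 111, 73.6 and 90.3 CPM without IAA and 76.4, 36.5 and 39.2 CPM with it (log2 fold change -0.89 ± 0.30, edgeR adjusted p = 0.161), and the groups overlapped. CcmFN, the neighbour of rps1, was at 33.6, 19.4 and 10.6 CPM without IAA and 27.1, 46.1 and 19.6 CPM with it. Its log2 fold change was 0.49 ± 0.48, positive where that of rps1 was negative. The count of rps1 for each count of ccmFN within a library ran from 1.21 to 9.67 in the 6 libraries, and the difference between these neighbours was not tested.

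Nad4, cox3 and cox1 gave log2 fold changes near 0 after IAA. Nad4 was at 42.6, 62.0 and 42.5 CPM without IAA and 56.7, 67.3 and 46.3 CPM with it, a log2 fold change of 0.20 ± 0.29. Cox3 was at 49.3, 23.2 and 39.0 CPM without IAA and 44.3, 38.4 and 44.5 CPM with it, a log2 fold change of 0.18 ± 0.35. Both overlap between treatments. Cox1 gave 0.15 ± 0.50. Nad3 gave 0.99 ± 0.54 (edgeR adjusted p = 0.432), with 60.5 CPM in 1 treated library and 19.7 and 23.1 CPM in the other two. A change of that size in nad3 was not detectable at this depth and spread.

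Rpl16, a large-subunit ribosomal protein gene, was below the filter after IAA and was singled out after its values had been seen. It had 16 counts in the 3 untreated libraries, with 2396447 total counts, and 0 in the 3 treated libraries, with 1603523 total counts. Against a floor of 3 counts over the treated group it was 3.57-fold lower. That figure takes the 16 untreated counts as exact, so it is not a bound on the counting error of both groups. In a fit with no filter its edgeR adjusted p was 0.209, and it is not called.

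**Figure D3:**
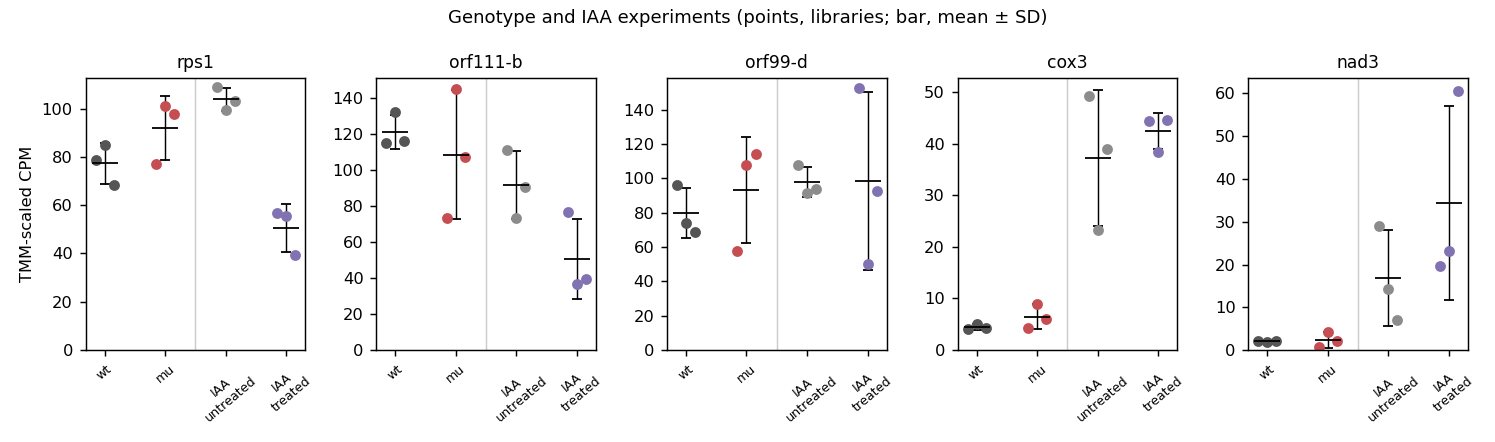
TMM-scaled CPM (y axis, each panel on its own scale) of rps1, orf111-b, orf99-d, cox3 and nad3 in the 6 libraries of the genotype experiment (left of the grey line) and the 6 of the IAA experiment (right); points are libraries and bars are mean ± SD (n = 3). The 3 IAA-treated libraries of rps1, at 39.2 to 56.7 CPM, all lie below the untreated ones at 99.4 to 109 CPM, and the genotypes overlap in all panels.

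In the JA experiment the members leaned higher in every group than in wt_0. Of 26 members tested, 10 rose in mu_100 against wt_0, 5 in wt_100 and 4 in mu_0, and none fell by edgeR or DESeq2. Over all 11265 features, 5.25% were called higher in mu_100, 1.77% in wt_100 and 2.74% in mu_0, and 4.94%, 0.959% and 2.46% lower. DESeq2 called 9, 5 and 4 members higher. An unadjusted p under 0.05 in edgeR was reached by 16, 13 and 10, all positive. The median log2 fold changes over the members were 0.94, 0.55 and 0.59, with 26, 23 and 25 of 26 positive, against 0.01, 0.00 and 0.00 over all features. Without the ENSRNA features, where 30 members were tested, 11, 8 and 9 were called higher, as were 717, 278 and 441 of all 11208 features. These 3 comparisons share the wt_0 libraries, so they are not independent of each other, and orf140-a and orf101-a count as 2 of the 10.

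Among the members that rose in mu_100, cox1 and cox3 of complex IV had the largest log2 fold changes. Cox3 was at 35.8, 51.9 and 45.6 CPM in wt_0, 80.5, 64.6 and 73.0 CPM in mu_0, 106, 97.2 and 101 CPM in wt_100 and 136, 109 and 102 CPM in mu_100. All libraries of the other groups lay above wt_0, and mu_0 lay below wt_100 and mu_100 with no overlap. The log2 fold change against wt_0 was 1.19 ± 0.15 in wt_100 (edgeR adjusted p = 0.000317), 0.71 ± 0.15 in mu_0 (edgeR adjusted p = 0.0143) and 1.38 ± 0.15 in mu_100 (edgeR adjusted p = 4.26e-05). The calls in wt_100 and mu_100 held in 6 of 6 fits without 1 library, and that in mu_0 in 4 of 6.

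Cox1, the catalytic subunit of the same enzyme, was at 10.5, 21.4 and 10.5 CPM in wt_0, 29.6, 33.8 and 32.4 CPM in mu_0, 24, 42.7 and 32.3 CPM in wt_100 and 28.7, 54.4 and 44.4 CPM in mu_100. The 9 libraries outside wt_0 were all above the 3 in it, while mu_0, wt_100 and mu_100 overlapped each other. It rose in all 3 groups, with log2 fold changes of 1.17 ± 0.31 in mu_0 (edgeR adjusted p = 0.0413), 1.23 ± 0.31 in wt_100 (0.0443) and 1.59 ± 0.31 in mu_100 (0.00397). The call in mu_0 held in 1 and that in wt_100 in 2 of 6 fits without 1 library, with edgeR adjusted p reaching 0.147 and 0.205. The call in mu_100 held in 6 of 6.

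Orf147-b, the open reading frame beside cox1, was at 20.9, 18.1 and 19.9 CPM in wt_0, 25.1, 30.8 and 27.8 CPM in mu_0, 56.2, 46.9 and 47.5 CPM in wt_100 and 41.1, 51.9 and 43.2 CPM in mu_100. The libraries named 100 lay above those named 0 with no overlap, in both wt and mu. Its log2 fold change against wt_0 was 1.35 ± 0.16 in wt_100 (edgeR adjusted p = 0.00017) and 1.20 ± 0.17 in mu_100 (0.000304), and both held in 6 of 6 fits. In mu_0 it was 0.50 ± 0.17 (edgeR adjusted p = 0.155).

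Cox2, the remaining mitochondrial subunit of complex IV, varied more. It was at 8.96, 3.38 and 13.4 CPM in wt_0, 31.9, 15.9 and 3.48 CPM in mu_0, 23.0, 28.5 and 35.0 CPM in wt_100 and 13.7, 7.59 and 29.6 CPM in mu_100. Wt_100 did not overlap with wt_0, with a log2 fold change of 1.74 ± 0.52, but the edgeR adjusted p was 0.103. Without the low-count filter it was 1.94e-07, without the ENSRNA features 0.0121 and with these 2 groups alone 0.027, so that whether cox2 passes depends on the setting.

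Atp4 of ATP synthase was at 41.8, 47.9 and 41.5 CPM in wt_0, 79.7, 75.5 and 54.5 CPM in mu_0, 87.5, 98.1 and 95.1 CPM in wt_100 and 97.2, 84.8 and 111 CPM in mu_100. Its wt_0 values lay below all others. The log2 fold change was 1.10 ± 0.15 in wt_100 (edgeR adjusted p = 0.000597) and 1.16 ± 0.15 in mu_100 (0.00018), each in 6 of 6 fits without 1 library. In mu_0 it was 0.68 ± 0.15 (edgeR adjusted p = 0.0169, 2 of 6 fits). Orf99-d, the neighbour of atp4, was at 66.2, 120 and 109 CPM in wt_0 and 174, 148 and 173 CPM in mu_100, with no overlap. It rose by a log2 fold change of 0.75 ± 0.21 (edgeR adjusted p = 0.0381), a call that held in 1 of 6 fits. In mu_0 and wt_100 it was called without the ENSRNA features (edgeR adjusted p = 0.0315 and 0.0139) and with no low-count filter (0.0281 and 0.00409), but not with the filter and all features.

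Atp1-a1, the other ATP synthase gene tested, gave log2 fold changes of 0.27 ± 0.67 in mu_100, 0.61 ± 0.60 in mu_0 and -0.22 ± 0.66 in wt_100, all with overlap. Its values were those of the run of 11 neighbours and of few counts.

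Nad4 of complex I was at 33.9, 38.9 and 39.1 CPM in wt_0, 84.3, 83.5 and 42.9 CPM in mu_0, 59.9, 62.0 and 51.1 CPM in wt_100 and 103, 68.3 and 87.6 CPM in mu_100. The mu_100 libraries were all above those of wt_100, and mu_0 replicate 3 stood near wt_0. Against wt_0 the log2 fold change was 1.21 ± 0.22 in mu_100 (edgeR adjusted p = 0.0021, 6 of 6 fits), 0.93 ± 0.21 in mu_0 (0.0207, 1 of 6 fits) and 0.63 ± 0.22 in wt_100 (edgeR adjusted p = 0.166, and 0.034 with these 2 groups alone). Without mu_0 replicate 3 the difference of mu_0 was 1.16 (edgeR adjusted p = 0.00144). Nad3, a smaller membrane subunit of the same complex, gave 0.18 ± 0.45, 0.44 ± 0.41 and 0.49 ± 0.40 in mu_100, mu_0 and wt_100 and did not pass.

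**Figure D4:**
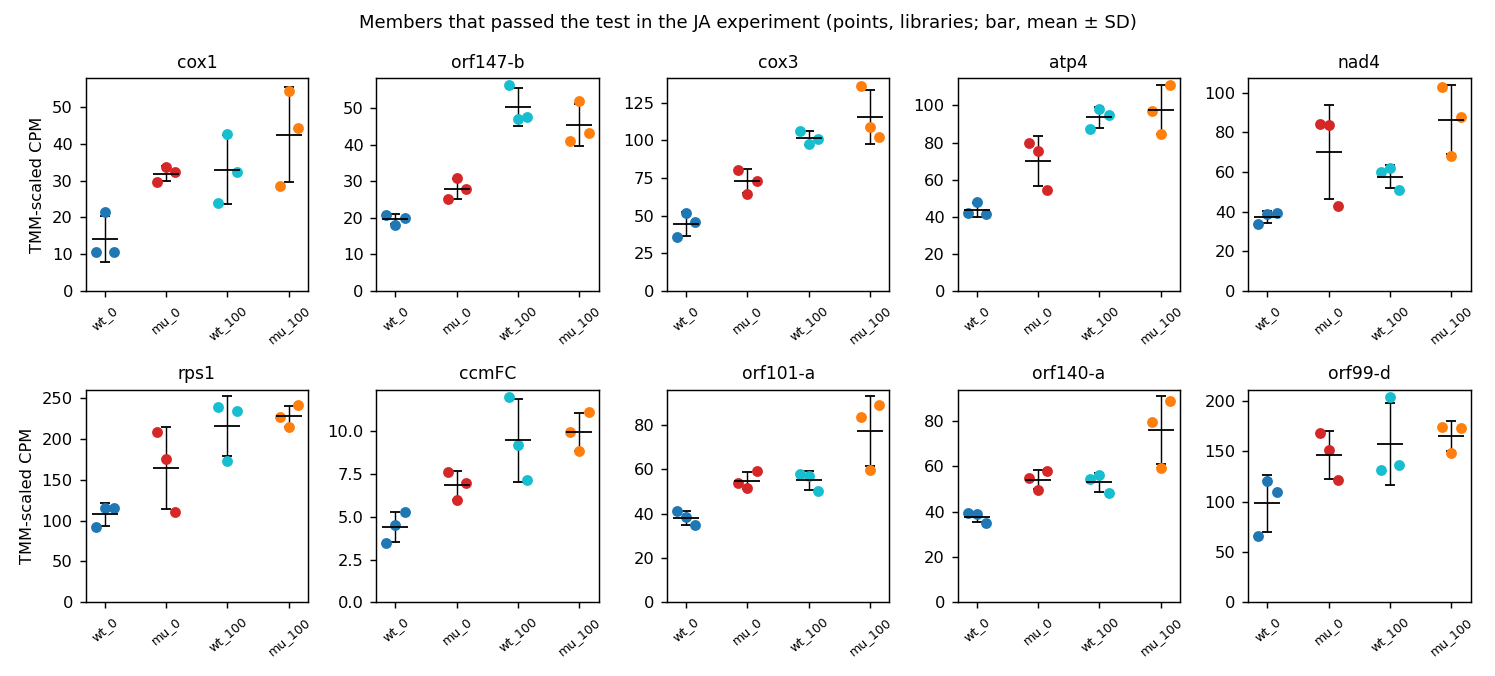
TMM-scaled CPM (y axis, each panel on its own scale) of the 10 members that passed the test in at least 1 comparison of the JA experiment, in 4 groups of 3 libraries; points are libraries and bars are mean ± SD (n = 3). Wt_0 has the lowest group mean in each panel. Each member was called higher in mu_100 than in wt_0, so the order of these 2 groups follows from the choice of panels. Orf147-b separates the 100 groups (41.1 to 56.2 CPM) from the 0 groups (18.1 to 30.8 CPM), and nad4 in mu_0 spreads from 42.9 to 84.3 CPM.

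Of the ribosomal protein genes, rps1 was the member that passed. It was at 91.6, 115 and 116 CPM in wt_0, 208, 175 and 110 CPM in mu_0, 239, 173 and 234 CPM in wt_100 and 227, 215 and 241 CPM in mu_100. The wt_100 and mu_100 libraries all lay above wt_0, while mu_0 overlapped with it through replicate 3. It rose by 1.00 ± 0.19 in wt_100 (edgeR adjusted p = 0.0098) and 1.08 ± 0.19 in mu_100 (0.00214) on the log2 scale. The first call held in 5 of 6 fits and was lost without wt_0 replicate 1, at 0.0589, and the second held in 6 of 6. In mu_0 it was 0.62 ± 0.19 (edgeR adjusted p = 0.0813), and without mu_0 replicate 3 it was 0.83 (edgeR adjusted p = 0.00985). It was called in mu_0 without the ENSRNA features (edgeR adjusted p = 0.00911) and with no low-count filter (0.00628) as well.

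The other ribosomal members tested missed the threshold. In mu_100 against wt_0, rpl16 gave a log2 fold change of 1.00 ± 0.36 (edgeR adjusted p = 0.095) and rps7 1.00 ± 0.33 (0.0728), both with no overlap between the groups. Rpl16 was called in 3 other settings, without the ENSRNA features (edgeR adjusted p = 0.0375), with these 2 groups alone (0.0409) and with no low-count filter (0.0196). Rps12 gave 0.46 ± 0.28, rps3 0.34 ± 0.70 and rps2A 0.10 ± 0.78, all with overlap. All 6 ribosomal members were thus positive and 1 passed.

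Of cytochrome c maturation, ccmFC was at 3.48, 4.51 and 5.26 CPM in wt_0, 7.6, 5.96 and 6.95 CPM in mu_0, 12, 9.22 and 7.17 CPM in wt_100 and 9.97, 8.86 and 11.1 CPM in mu_100. Like ccmFN it encodes part of the machinery that attaches haem. The groups lay above wt_0 with no overlap, and the gene rose in mu_100 (log2 fold change 1.17 ± 0.35, edgeR adjusted p = 0.048). That call was lost in all 6 fits without 1 library, at 0.0804 to 0.173, and with DESeq2. It was also lost without the ENSRNA features (edgeR adjusted p = 0.0796) and with no low-count filter (0.251). With a replicate term (0.078) and with these 2 groups alone (0.0501) it was lost too, and it held in the remaining alternatives. CcmFN was at 38.3, 69.4 and 59.0 CPM in wt_0 and 76.0, 54.4 and 132 CPM in mu_100, which overlap (log2 fold change 0.66 ± 0.29, edgeR adjusted p = 0.179, and 0.0401 with no low-count filter).

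Among open reading frames of no named function, orf101-a was at 41.3, 38.4 and 35.0 CPM in wt_0, 53.9, 51.7 and 59.1 CPM in mu_0, 58.0, 57.0 and 50.2 CPM in wt_100 and 83.5, 59.5 and 88.9 CPM in mu_100. Every library outside wt_0 lay above it, and mu_0 and wt_100 overlapped each other. It rose in mu_100 (log2 fold change 1.01 ± 0.15, edgeR adjusted p = 0.000435, 6 of 6 fits), and orf140-a, which shares its counts, gave 1.01 ± 0.14 (0.000374). In mu_0 orf101-a gave 0.52 ± 0.15 and in wt_100 0.52 ± 0.15, with edgeR adjusted p of 0.0597 and 0.0806, and 0.0359 and 0.0433 without the ENSRNA features.

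Orf111-b, the most abundant member, did not pass in these comparisons, but whether it passes depends on the setting. It was at 130, 193 and 145 CPM in wt_0, 292, 368 and 143 CPM in mu_0, 214, 230 and 224 CPM in wt_100 and 284, 191 and 339 CPM in mu_100. The wt_100 libraries lay above wt_0, and the other two groups overlapped with wt_0 in 1 library each, mu_0 replicate 3 and mu_100 replicate 2. In mu_0 its log2 fold change was 0.78 ± 0.27 (edgeR adjusted p = 0.116), and without mu_0 replicate 3 it was 1.07 (0.01). In mu_100 it was 0.80 ± 0.27 (edgeR adjusted p = 0.0767), and without mu_100 replicate 2 it was 0.99 (0.0449). Without the ENSRNA features it was called in both, with edgeR adjusted p of 0.0123 in mu_0 and 0.00772 in mu_100, and with no low-count filter in all 3 groups, at 1.1e-05 in mu_0, 1.56e-05 in mu_100 and 0.0356 in wt_100. With mu_100 and wt_0 alone its edgeR adjusted p was 0.032. Mat-r was at 7.69 ± 0.947 CPM (SD, n = 3) in wt_0, 13.3 ± 1.01 in mu_0, 8.12 ± 4.97 in wt_100 and 15.0 ± 3.13 in mu_100, and passed in none of them.

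The 2 readings of the labels can be set beside the genotype experiment, which shares no library with the JA experiment. If mu_0 against wt_0 is a genotype difference, it addresses the same contrast as mutant against wild type without hormone. Cox3 gave a log2 fold change of 0.71 ± 0.15 in mu_0 and 0.54 ± 0.28 in the genotype experiment. For nad4 the values were 0.93 ± 0.21 and 0.11 ± 0.21, for atp4 0.68 ± 0.15 and -0.04 ± 0.20 and for cox1 1.17 ± 0.31 and -0.37 ± 0.36. By title the contrast would instead be wt_100 against wt_0, where cox3 gave 1.19 ± 0.15, nad4 0.63 ± 0.22, atp4 1.10 ± 0.15 and cox1 1.23 ± 0.31. These genes were the members that rose in mu_0 against wt_0, so their mu_0 values were picked as high. Other members are not set side by side here. The differences between the experiments were not tested.

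Within the groups named mu, 2 members rose in mu_100 against mu_0, cox3 and orf147-b. Over all 11265 features 2.06% were called higher and 1.61% lower. Cox3 had a mean of 72.7 ± 7.97 CPM in mu_0 and 116 ± 17.7 in mu_100 (SD, n = 3), a log2 fold change of 0.67 ± 0.15 (edgeR adjusted p = 0.0246). Orf147-b had a mean of 27.9 ± 2.87 CPM in mu_0 and 45.4 ± 5.72 in mu_100, a log2 fold change of 0.71 ± 0.17 (edgeR adjusted p = 0.0332). Neither gene overlapped between these groups. The call for orf147-b was lost in all 6 fits without 1 library, at 0.0557 to 0.175, and with DESeq2 at 0.112, and that for cox3 held in 2 of 6, so neither was stable. Without the ENSRNA features, cox3 was called and orf147-b was not (edgeR adjusted p = 0.00645 and 0.053), and 280 of all 11208 features were called higher. The median over the 26 members was 0.27 with 21 positive. Without 1 library at a time it ran from -0.16 to 0.44. The lowest value came without mu_0 replicate 3, over 39 members, and the highest without mu_0 replicate 2, over 27. The filter was applied anew in these fits, so the medians are over different lists of members.

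Between mu_100 and wt_100, 0 of 26 members passed by edgeR or DESeq2, while 4 reached an unadjusted p under 0.05 in edgeR, all positive. Over all features 1.23% were called higher and 1.68% lower. The genes that rose in both groups against wt_0 gave log2 differences of 0.06 ± 0.15 for atp4, 0.08 ± 0.19 for rps1, -0.14 ± 0.16 for orf147-b, 0.19 ± 0.15 for cox3 and 0.36 ± 0.30 for cox1. Nad4 and orf140-a gave 0.58 ± 0.22 and 0.52 ± 0.15, with no overlap between the groups and edgeR adjusted p of 0.189 and 0.0747. Without mu_100 replicate 2, orf140-a and orf101-a were called higher, at 0.66 and 0.64 (edgeR adjusted p = 0.0308 and 0.0351).

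The interaction, which is the same number under either reading of the labels, asks whether the difference between 100 and 0 differed between mu and wt. No member passed it by edgeR or DESeq2 (0 of 26), while atp4, orf147-b, cox3 and cox2 reached an unadjusted p under 0.05 in edgeR, 4 in all and all negative. Over all features 0.213% were called higher and 0.417% lower. The interaction was negative for 22 of 26 members, with a median of -0.33 against 0.01 over all features. Of those 4 members, atp4 gave -0.62 ± 0.21, orf147-b -0.64 ± 0.24 and cox3 -0.53 ± 0.22. Their edgeR adjusted p were 0.271, 0.33 and 0.369 in that order. Cox2 gave -1.86 ± 0.78 (edgeR adjusted p = 0.384), and with no low-count filter it was called, at 0.00155. Leaving out mu_100 replicate 2 gave a median of 0.12, but over 39 members, since the filter was applied anew. The part of that library and that of the longer list were not separated. The other fits without 1 library gave medians from -0.58 to -0.13.

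**Figure D5:**
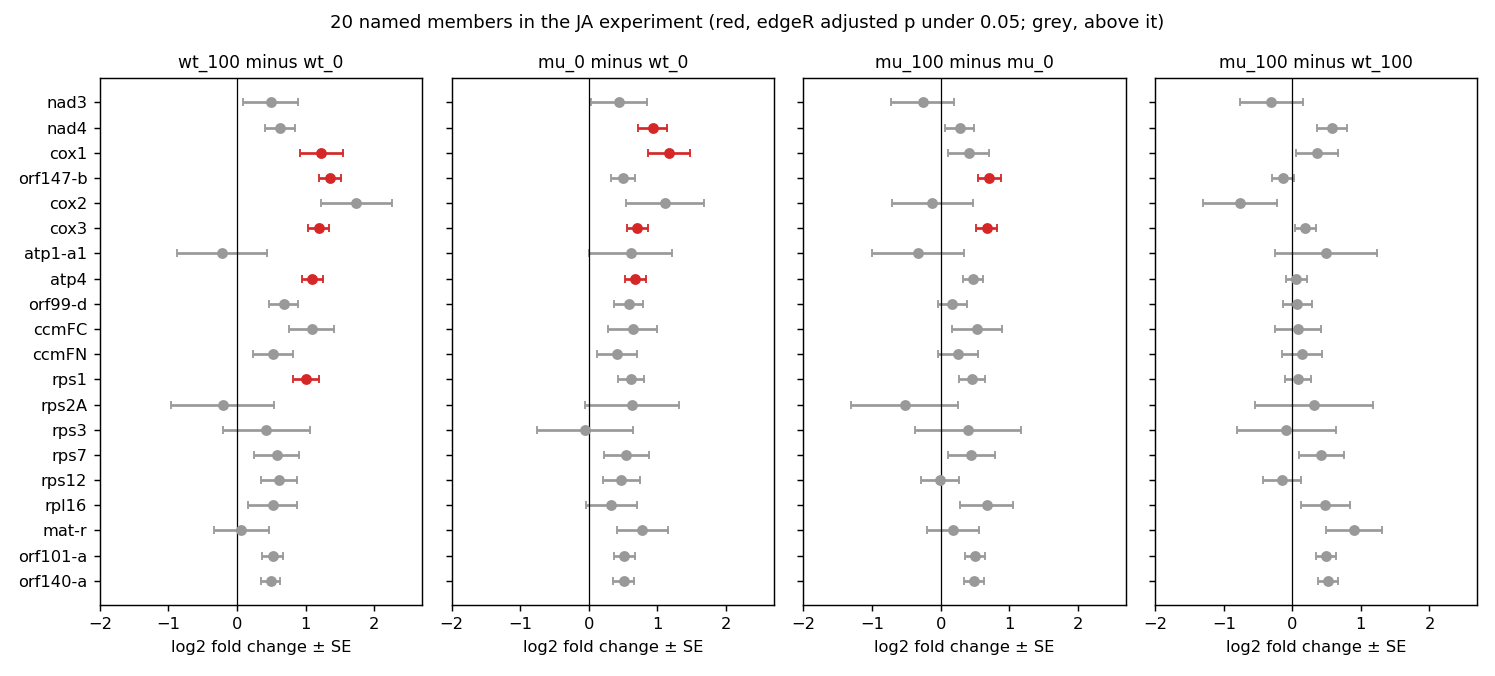
Log2 fold changes ± SE (x axis) of the 20 named members in 4 comparisons of the JA experiment, red where the edgeR adjusted p was under 0.05 and grey elsewhere. In wt_100 minus wt_0 5 members are red, in mu_0 minus wt_0 4, in mu_100 minus mu_0 2 and in mu_100 minus wt_100 0; the comparisons share libraries.

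The mitochondrial ribosomal RNAs, which lie on the same genome but are no members, rose in 2 of the same comparisons. In mu_100 against wt_0, rrn26 gave a log2 fold change of 0.76 ± 0.15 (edgeR adjusted p = 0.00394) and rrn18 1.13 ± 0.20 (0.00221). In mu_0 they gave 0.84 ± 0.15 (0.00408) and 0.82 ± 0.20 (0.029). In wt_100 they gave 0.48 ± 0.15 (edgeR adjusted p = 0.114) and 0.78 ± 0.20 (0.0521) and did not pass. Both plastid protein features tested rose in mu_100 and in mu_0 as well, with medians of 1.77 and 1.90, and neither passed in wt_100, where the median was 0.82. Depth was highest in wt_0. The plastid share lay above wt_0 in mu_0 and mu_100 and within its range in wt_100, and the ENSRNA share of wt_100 and mu_100 lay within that of wt_0. The part of depth and of these classes in the result was not tested beyond the fits named.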

How the data were processed

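Per the labels' protocols, total RNA of pooled maize endosperm was extracted with a commercial plant RNA kit and sequenced by MP3RNA-seq. The authors deposited whole-number counts per feature, 1 table per library. Trimmomatic 0.39 and HISAT2 2.2.1 were used, per the submitters' processing notes. How reads were counted, on which build and annotation, with or without strand and with or without duplicate removal, is nowhere stated in the labels, so overlapping, antisense and copied genes are uncertain. Among the features, 11 groups of copies by name held 23 features.

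The counts were used as deposited. Each experiment was fitted apart in edgeR 4.0.16 (R 4.3.3), the JA experiment as 12 libraries in 4 groups, with TMM scaling, filterByExpr at a minimum count of 10, quasi-likelihood 2-sided tests and Benjamini-Hochberg adjustment over all features tested, which were 17841, 7687 and 11265. The threshold was an adjusted p of 0.05, the standard error is the log2 fold change divided by the root of the F statistic, and the procedure was tested on simulated counts. JA groups follow the names of the count tables. Named members were those of known function that passed the filter in 1 or more experiments and other open reading frames that were called, 20 in all, and orf111-b is described as the most abundant member. The members, lists and tests were chosen with earlier results of these data known. Alternatives were DESeq2 1.42.0, RLE scaling, no filter, a replicate term, the 50 most abundant features left out of library sizes, no ENSRNA features, summed copies, 1 member per run, the 2 groups alone and each library left out.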

Additional observations from a re-analysis of the deposited data

How the results depend on the processing

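Of 328 values of the 22 called fold changes under the alternatives, 267 kept direction and call, 61 kept direction and lost the call, and 0 reversed. Calls held in every alternative for 11 of the 22. Depth limits what could be tested: 144 members entered no fit with the filter, and low members share counts with neighbours.

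Counts of members called that moved by more than 1.5 times were these. With no low-count filter, 2 of 172 members tested were higher in the mutant of the genotype experiment, as were 657 of all 33449 features. Of 175 members tested in the JA experiment, 8 were higher in mu_0 and 8 in wt_100 against wt_0. In mu_100 against mu_0 1 was higher, and 1, cox2, was lower in the interaction. Of all 30799 features, 430, 249 and 252 were higher in these comparisons and 197 lower in the interaction. Without the ENSRNA features the counts of higher members were 1 in the genotype experiment, 9 in mu_0, 8 in wt_100 and 1 in mu_100 against mu_0. The calls over all features in those fits stand with each comparison above. For mu_100 against mu_0, DESeq2 called 1 and the fit of those 2 groups alone 0. Over all features, those fits called 221 of 11265 and 150 of 8531 higher. The cause was not tested.

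Without 1 library at a time, the members called higher numbered 0 to 2 for the genotype, 8 to 10 for mu_100, 0 to 5 for mu_0 and 3 to 5 for wt_100 against wt_0. They ran from 0 to 2 in mu_100 against mu_0 and from 0 to 2 in mu_100 against wt_100. The count lower after IAA was 0 in each of these fits. Over all features, those fits called 368 to 448 higher for the genotype, against 576 with all libraries. Against wt_0 they called 390 to 447 in mu_100 (591 with all), 145 to 259 in mu_0 (309) and 109 to 142 in wt_100 (199). They called 147 to 170 in mu_100 against mu_0 (232) and 58 to 85 in mu_100 against wt_100 (139). After IAA they called 31 to 93 lower (90).

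Replicate numbers did not pair the libraries, with correlations of deviations between same-numbered libraries from -0.0894 to 0.1. With a replicate block, 0 members were lower after IAA and 1 was higher in mu_100 against mu_0. Over all features, 71 of 7687 were then lower after IAA and 198 of 11265 higher in mu_100 against mu_0.

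Without the 50 most abundant features, the members' mean share of counts was 0.0822% in wild type, 0.0918% in mutant, 0.138% without and 0.106% with IAA, 0.185% in wt_0, 0.263% in mu_0, 0.28% in wt_100 and 0.337% in mu_100. Without ENSRNA features it was 0.154% in wt_100.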
